A study of Solanum lycopersicum and Solanum pennellii with 32 samples.

Results

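The genes described here had higher transcript levels at limiting than at sufficient phosphate in the midsection of M82 tomato roots and did not reach the same fold at the root tip. They are 503 of 34843 gene models, chosen from the deposited M82 counts. Each count was divided by its library's total and scaled to a library total of 1000000 (counts per 1000000, CPM), and group means were taken. A member had a mean of at least 5 CPM in limiting midsections, all 4 limiting midsection libraries above all 4 sufficient ones, a midsection ratio of at least 2 and a tip ratio below 2. Both ratios are limiting over sufficient means after adding 1 CPM. Of the 503 members, 161 had a sufficient tip mean at least 4 times the sufficient midsection mean on the same scale. They are called tip-gained members below, and the other 342 are called other members.

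All seedlings carried a 35S:TRAP construct, whose promoter is active in most plant cells and which expresses a tagged ribosomal protein; the labels describe total RNA. The main material was cultivated tomato, Solanum lycopersicum cv M82, 8 to 10 days after germination, on medium with limiting or sufficient phosphate, cut as about 2 cm of root midsection or the 1 cm root tip. Solanum pennellii LA0716, a wild relative (Pennellii below), was grown and cut in the same way. Each of the 8 groups had 4 replicates of 30 to 40 pooled plants.

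Phosphate is an essential nutrient that moves poorly through soil, and plants short of it change transporter, phosphatase, lipid and root growth programmes. In Arabidopsis the root tip is the site where external low phosphate is sensed, while internal phosphate status is read throughout the plant by SPX proteins and PHR transcription factors. The root tip segment holds the meristem and the zone of cell elongation. The midsection holds more mature tissue. Libraries were bulk, so fewer cells of a type and less RNA per cell cannot be told apart in any value below. The sources used here pair the gene IDs with no names, so members are given by ID alone, and no marker gene of a root cell type or position could be looked up.

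M82 libraries held 1084652 to 34103546 counts. The shallowest was sufficient midsection replicate 3, in which 101 members had no count and 3 counts amounted to 2.77 CPM; 7 to 22 members had no count in the other sufficient midsection libraries. Sufficient tip replicates 3 and 4 were also below 2000000 counts. With these 3 libraries left out, a choice made after seeing the data, the same selection gave 605 genes, which held 388 of the 503 members (77.1%).

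The selection used the M82 libraries, so the M82 ratios of the members are a description of what was chosen. Counts of members past the threshold of a fit to these libraries are given further on as part of that description and support nothing. Of 14026 gene models with at least 5 CPM in limiting midsections, 1067 (7.61%) had every limiting midsection library above every sufficient one. Of these, 677 (4.83% of the 14026) had a ratio of at least 2, and 174 of the 677 also reached a tip ratio of 2 and so were not members. In the opposite direction, 711 genes had every limiting midsection library below every sufficient one, and 282 of them had a ratio of 0.5 or less.

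The members' midsection ratio had a median of 2.84 and ran between 2.00 and 39.5, with 278 members between 2 and 3, 162 between 3 and 5, 57 between 5 and 10 and 6 at 10 or more. Their tip ratio had a median of 1.08, beside 1.07 over the 14026 genes. The rule cut the members' tip ratios at 2, while those of the 14026 genes ran up to 242. The nearness of the medians is therefore no finding. The tip ratio was 0.5 or less in 33 members, 0.5 to 1 in 176, 1 to 1.5 in 204 and 1.5 to 2 in 90. For the 90 members at 1.5 to 2, the name midsection riser rests on the chosen cut-off. Every limiting tip library lay above every sufficient one in 14 members (2.78%, beside 5.48% of the 14026 genes) and below in 11 (2.19%, beside 1.9%). The same cut lowers the members' share above.

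**Figure D1:**
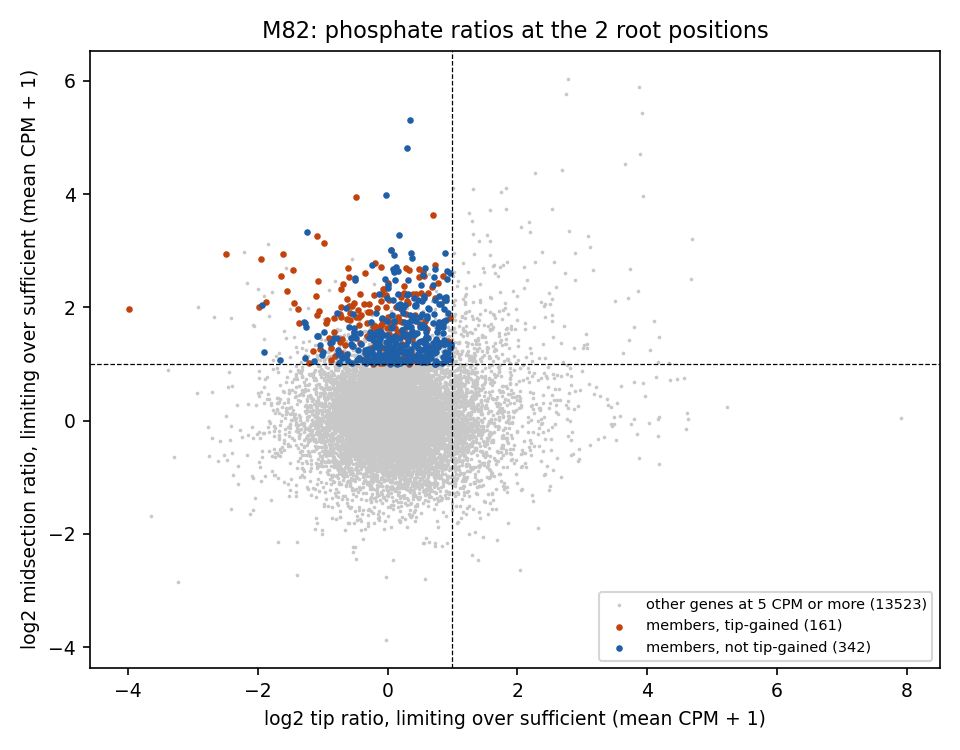
Each point is a gene model with at least 5 CPM in M82 limiting midsections. The vertical axis is the log2 midsection ratio and the horizontal axis the log2 tip ratio, limiting over sufficient means after adding 1 CPM; dashed lines mark the ratio of 2. The 161 tip-gained members (orange) and 342 other members (blue) fill the upper left field by choice, and grey points in that field are genes whose midsection libraries overlapped.

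Members lay close to the limits on every side. The lowest midsection ratios among members were 2.001, 2.006 and 2.006 (Solyc11g066890.1.1, Solyc10g086420.1.1, Solyc04g014800.3.1), and the nearest genes outside had 1.995, 1.991 and 1.983 (Solyc01g110440.4.1, Solyc04g080100.3.1, Solyc03g114500.3.1). The highest tip ratios among members were 1.98, 1.97 and 1.96 (Solyc12g044940.2.1, Solyc08g078510.3.1, Solyc10g076750.2.1), and just outside stood 2.004, 2.008 and 2.02 (Solyc02g084860.1.1, Solyc03g006730.2.1, Solyc08g008087.1.1). By level, the lowest members had 5.11, 5.15 and 5.23 CPM (Solyc08g079080.3.1, Solyc01g106370.3.1, Solyc03g032030.3.1), against 4.98, 4.98 and 4.97 CPM just outside (Solyc02g055565.1.1, Solyc06g072390.3.1, Solyc07g065460.1.1). The lowest limiting library was 1.0009, 1.0014 and 1.002 times the highest sufficient one in the closest members (Solyc03g120390.3.1, Solyc02g030220.1.1, Solyc08g067310.1.1) and 0.9995, 0.9994 and 0.998 times in the closest genes outside (Solyc12g010680.2.1, Solyc07g051840.3.1, Solyc03g093550.1.1). For the tip-gained split, 4.0001, 4.01 and 4.02 stood inside (Solyc02g088820.3.1, Solyc10g086565.1.1, Solyc06g030470.3.1) and 3.98, 3.97 and 3.95 outside (Solyc03g118270.1.1, Solyc06g076050.3.1, Solyc09g013150.3.1). A clear margin was the exception, since the lowest limiting library was at least 2 times the highest sufficient library in 98 members, 53 of them tip-gained.

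Summed over the 503 members, the share of all counts was 3.40%, 3.27%, 3.78% and 3.41% in limiting midsections and 1.51%, 1.39%, 0.994% and 1.14% in sufficient midsections. In tips it was 3.43%, 3.38%, 3.45% and 3.10% at limiting phosphate and 3.04%, 3.28%, 3.25% and 3.29% at sufficient phosphate. The sufficient midsection thus stood apart, below the limiting midsection by choice. The limiting midsection held about the share of both kinds of tip only in the total, since the classes differed. The split that defines the classes builds in part of that difference. Tip-gained members summed to 5710 to 6604.5 CPM in limiting midsections and 11932 to 15715.5 CPM in tips. Other members summed to 26944 to 31151 CPM in limiting midsections and 17150 to 20879 CPM in tips. The median member had 18.8, 20.2, 20.2 and 20.3 CPM in limiting midsections and 5.56, 7.70, 2.77 and 6.47 CPM in sufficient ones, the lowest of these being the shallow replicate 3. The rule placed all 4 limiting libraries above every sufficient one, so an even spread of the gain was largely fixed by choice. In replicates 1 to 4, 410, 421, 436 and 423 of the 503 members were at least 2 times the sufficient midsection mean. The members' coefficient of variation over the 4 limiting midsection libraries had a median of 25.4%, beside 24.2% over the 14026 genes.

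Most members were low to moderate in level. The mean in limiting midsections had a median of 19.8 CPM and quartiles of 9.92 and 48.5 CPM, with 129 members below 10 CPM and 58 at 100 CPM or more. In sufficient midsections 62 members averaged below 1 CPM, 38 of them tip-gained.

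**Figure D2:**
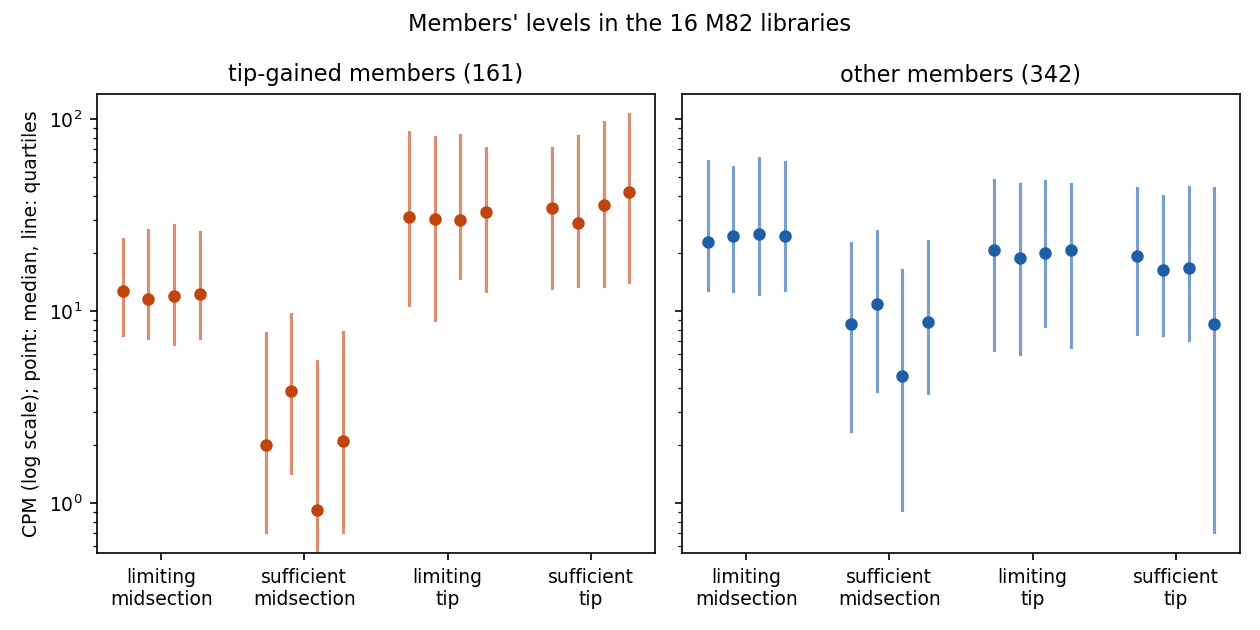
Median CPM (points) and quartiles (lines) of the 161 tip-gained members and the 342 other members in each of the 16 M82 libraries, on a log axis that ends above the lowest quartile of the shallow library. Tip-gained medians were 11.5 to 12.7 CPM in limiting midsections and 0.922 to 3.85 CPM in sufficient midsections, and all 8 tip libraries lay higher, at 28.6 to 41.9 CPM.

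At the median of the 161 tip-gained members the limiting midsection lay between the sufficient midsection and the tip. Their median level was 11.7 CPM in limiting midsections and 2.40 CPM in sufficient midsections, with tips at 31.4 CPM under limiting and 33.1 CPM under sufficient phosphate. Set against each gene's sufficient tip mean, the limiting midsection stood at a median of 47.9% and the sufficient midsection at 8.84%. The tip over midsection ratio of a tip-gained member had a median of 1.98 at limiting and 7.54 at sufficient phosphate. The limiting midsection mean reached the sufficient tip mean in 17 of the 161 (10.6%). These members were chosen for a high ratio at sufficient phosphate, so a place below the tip was in part built in. Their tip ratio had a median of 0.928, and 20 of the 33 members with a tip ratio of 0.5 or less were tip-gained.

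The 342 other members differed in level, in part because the split left them with the lower sufficient tip over midsection ratios. Their median was 23.9 CPM in limiting midsections and 8.75 CPM in sufficient midsections, with tips at 21.2 CPM under limiting and 17.0 CPM under sufficient phosphate. The median tip over midsection ratio was 0.798 at limiting and 1.96 at sufficient phosphate, so at the median their limiting midsections lay above the tip. The limiting midsection mean reached the sufficient tip mean in 259 of the 342 (75.7%), beside 54.9% of all members and 59.3% of the 14026 genes. The rule set a floor on the midsection ratio, and the split capped the tip excess of these 342. The difference from tip-gained members is therefore largely built in.

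A tip excess at sufficient phosphate was common to members beyond those split off for it. The sufficient tip mean exceeded the sufficient midsection mean in 452 members (89.9%), beside 45.8% of the 14026 genes, and the ratio lay between 2 and 4 in 168 of the other members. Only 9 members had a sufficient tip over midsection ratio of 0.5 or less. The sufficient midsection mean is the denominator both of this ratio and of the ratio that chose the members, so the share is not independent of the choice. At limiting phosphate the tip over midsection ratio was at least 2 in 81 members, of which 34 reached 4 and were all tip-gained, between 0.5 and 2 in 338 and 0.5 or less in 84.

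**Figure D3:**
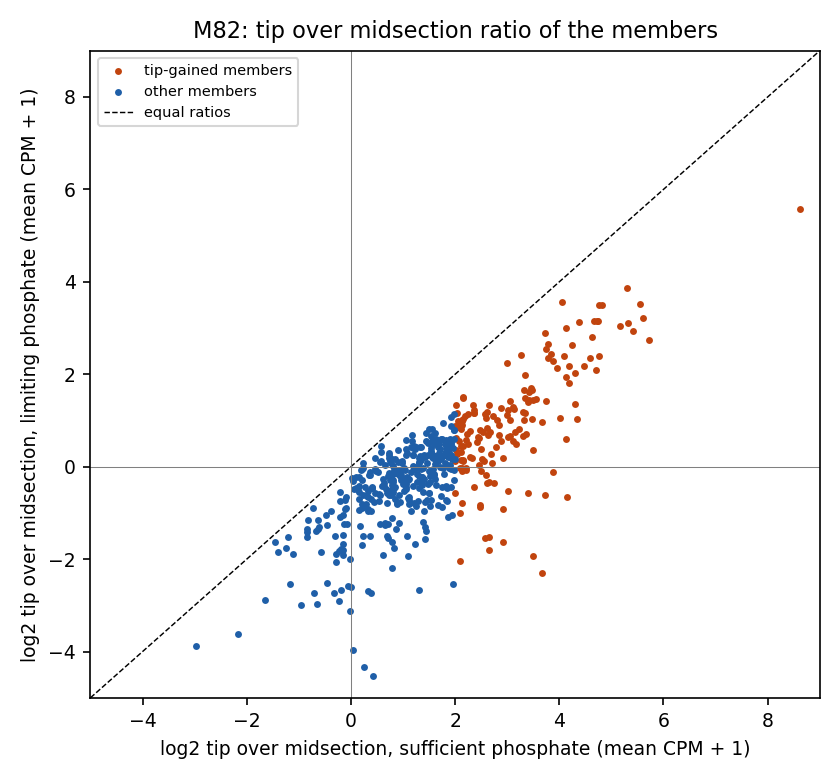
Log2 tip over midsection ratio of each member (mean CPM + 1) at limiting phosphate (vertical) and at sufficient phosphate (horizontal), with the dashed line at equal ratios. Points lie below the line because the midsection ratio exceeds the tip ratio in every member, which the choice of members fixed; tip-gained members keep a median ratio of 1.98 at limiting phosphate, beside 7.54 at sufficient phosphate.

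Tip genes as a class also had midsection ratios above 1 more often than not. Among 1521 gene models with a sufficient tip mean of at least 5 CPM and at least 4 times the sufficient midsection mean, 1225 (80.5%) had a midsection ratio above 1, beside 54.5% of the 14026 genes, and 476 (31.3%) had a ratio of at least 2, against 25 at 0.5 or less. All limiting midsection libraries lay above all sufficient ones in 250 (16.4%) and below in 0. Of the 1521, 158 were members, chosen for a ratio of at least 2. The class was chosen for a low sufficient midsection mean, the denominator of the ratio, and the 14026 genes for their limiting midsection level, so part of the difference between the shares is built in. The summed share of the other 1363 was 1.87%, 2.14%, 2.08% and 1.96% in limiting midsections and 1.90%, 1.48%, 1.34% and 1.24% in sufficient ones, and these ranges overlapped. In tips it was 8.75%, 9.88%, 9.36% and 8.56% at limiting and 11.2%, 13.8%, 14.0% and 16.5% at sufficient phosphate. The part that the levels of tip genes have in the members' values was not tested.

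The largest midsection ratio belonged to Solyc06g062550.4.1. It had 37.7, 27.8, 84.9 and 49.4 CPM in limiting midsections and 0.355, 0.33, 0 and 0.471 CPM in sufficient midsections, and it had 1.77, 0.0023, 1.6 and 1.49 CPM in limiting and 0.673, 0.117, 1.93 and 0.237 CPM in sufficient tips. Its limiting midsections were therefore the only M82 libraries above 2 CPM, and its ratio was 39.5 at the midsection and 1.27 at the tip. Its tip means were near the 1 CPM added, which draws the tip ratio towards 1. The edgeR fit described further on gave log2 fold changes of 1.19 at the tip, not called, and 6.99 at the midsection. Its counts were fractional in 56.2% of the libraries. Solyc07g009100.3.1 came next, with 37.1, 20.5, 36.3 and 24.3 CPM in limiting midsections and 0.234, 0, 0 and 0.118 CPM in sufficient ones. Its sufficient midsections held 3 counts in all, and the ratio of summed counts per summed depth was 284 (95% exact interval 97.1 to 1382, counting error only). Its tips held 0.624 to 7.39 CPM under limiting and 0 to 9.35 CPM under sufficient phosphate, and these ranges overlapped.

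Neighbouring IDs of this gene were members too. Solyc07g009080.3.1 had 49, 23.7, 29.2 and 15.2 CPM in limiting midsections and 6.74, 0.66, 0 and 0.588 CPM in sufficient midsections, where replicate 1 held most of the counts. In tips it had at most 1.18 CPM except in sufficient replicate 1, at 10.1 CPM. Solyc07g009090.3.1 had 5.83, 9.9, 3.83 and 3.68 CPM in limiting midsections, at most 0.42 CPM in sufficient midsections and at most 0.473 CPM in any tip. The 3 genes had midsection ratios of 10.1, 6.16 and 28.1 in ID order. Their counts were fractional in 18.8% to 37.5% of the M82 libraries, and each value is uncertain; the origin of the fractions was not tested.

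Some of the largest ratios rested on few counts or few libraries. Solyc06g073580.3.1, with a ratio of 15.8, had 2.12, 1.21, 5.91 and 52 CPM in limiting midsections and 1 count in the 4 sufficient ones. Replicate 4 made up 84.9% of its limiting sum, and the gene did not pass the low-count filter of the fit. Solyc05g052490.3.1 had 18.1, 6.72, 6.22 and 0.186 CPM in limiting midsections, with replicate 4 near 0, and no rounded count in sufficient midsections. Its summed level was 83.0-fold higher when a floor of 3 counts was assumed for the sufficient group. The exact 95% lower limit of the ratio was 67.1. Its sufficient tips ran from 0.201 to 16.5 CPM. Solyc11g005610.1.1 had 9.53, 5.09, 6.34 and 15 CPM in limiting midsections against 1 count in sufficient ones, a ratio of summed levels of 228 (95% exact interval 40.6 to 9025), and at most 0.473 CPM in any tip.

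The remaining genes of the 10 largest ratios were expressed in tips as well. Solyc02g082920.3.1 had 33.3, 15.1, 69 and 68.2 CPM in limiting and 1.42, 3.41, 1.84 and 1.53 CPM in sufficient midsections, beside 5.74 to 26.1 CPM in limiting and 3.86 to 51.9 CPM in sufficient tips. Solyc04g054690.3.1 had 30.3, 23.3, 34.1 and 22.9 CPM in limiting and 0.473, 1.98, 0.285 and 2.47 CPM in sufficient midsections, with a tip ratio of 1.63. For both genes, the limiting midsections lay far above the sufficient ones while the tip ranges overlapped. Solyc03g096420.1.1 had 12.7, 10.9, 9.59 and 20.8 CPM in limiting and 0.71, 1.21, 0 and 0.118 CPM in sufficient midsections, and its sufficient tips were uneven, at 50, 13.5, 12.2 and 0.355 CPM. Solyc09g008910.2.1 had 58.7, 31.2, 47.4 and 63.2 CPM in limiting and 12.9, 4.73, 0.922 and 2.71 CPM in sufficient midsections, near the 65.4 to 195 CPM of limiting and 62.4 to 186 CPM of sufficient tips. Its limiting midsections met the tips only in replicate 4, at 63.2 CPM beside a lowest tip of 62.4 CPM, and its tip ratio was 1.04. Both tip means were below 1 CPM in 9 members in all (1.79%, beside 0.585% of the 14026 genes). With 1 CPM added, such genes always have a tip ratio below 2, so the rule favours them.

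**Figure D4:**
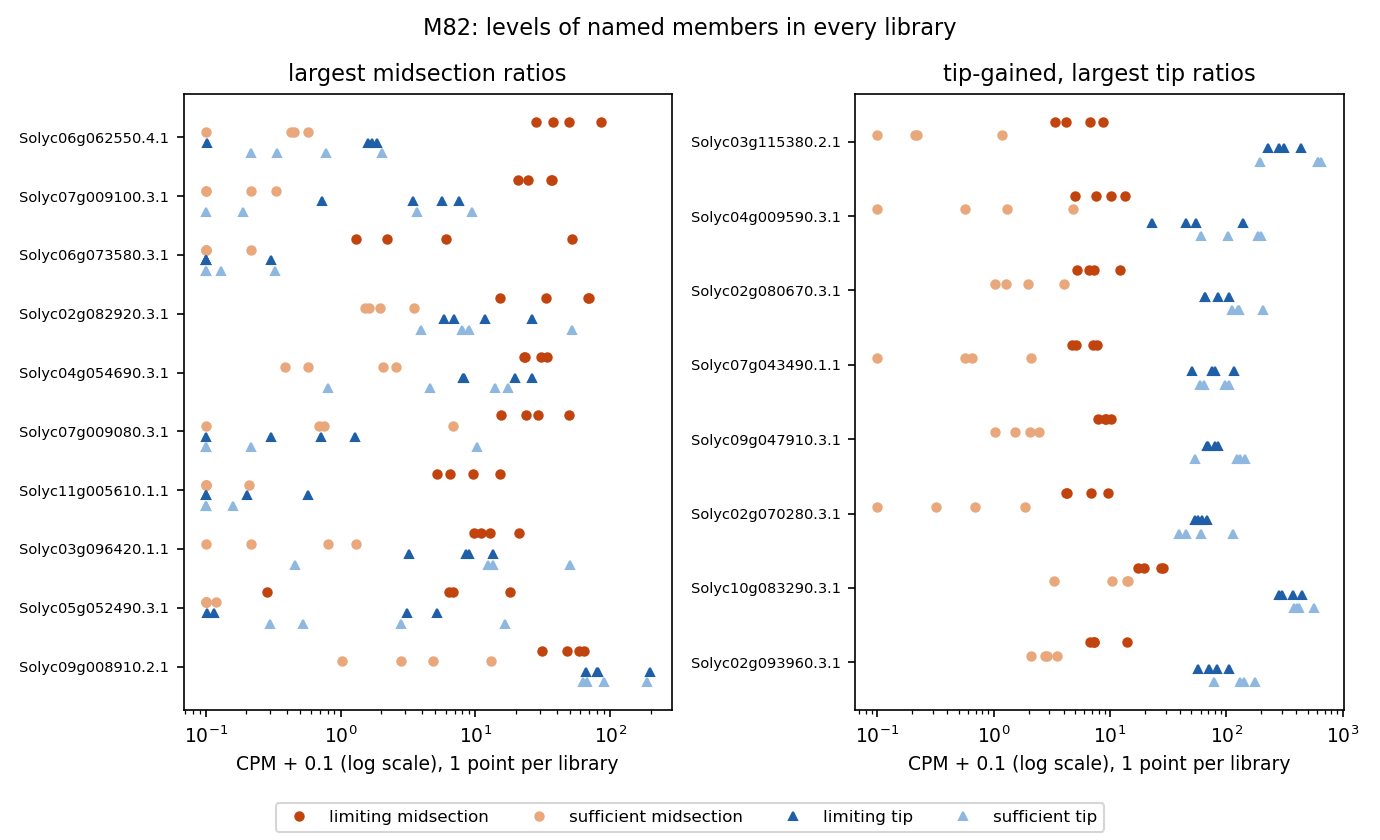
CPM + 0.1 in every M82 library, on a log axis, for the 10 members with the largest midsection ratios (left) and the 8 tip-gained members with the largest sufficient tip over midsection ratios (right). Limiting midsections (dark circles) lie right of sufficient midsections (pale circles) for every gene by choice; tips (triangles) lie left of or among the limiting midsections in most genes of the left panel and right of them in every gene of the right panel.

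Among the most abundant members, the gap between phosphate levels was smaller and more even. Solyc06g005470.3.1 was the highest, with 5623, 3147, 5410.4 and 3945 CPM in limiting and 2048, 1761, 1599.6 and 1782 CPM in sufficient midsections. Its tips held 231 to 469 CPM at limiting and 96.7 to 350.5 CPM at sufficient phosphate, which made it a midsection gene at both phosphate levels. Solyc09g097960.3.1 had 929.7, 1073, 1135 and 780.5 CPM in limiting and 333, 292, 255 and 223 CPM in sufficient midsections, with tips at 308 to 398 CPM under limiting and 178 to 302 CPM under sufficient phosphate. Its limiting tips all lay above its sufficient tips, with a tip ratio of 1.42 beside a midsection ratio of 3.54.

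Solyc11g011330.2.1 had 848, 1121, 1327 and 871 CPM in limiting and 633, 459.9, 526 and 363 CPM in sufficient midsections, and the 8 tips held 1226 to 1908 CPM. Solyc07g052510.4.1 had 855, 794, 966 and 841 CPM in limiting and 506, 339, 261 and 218 CPM in sufficient midsections, beside 891 to 1201 CPM in the 8 tips. For these genes the sufficient midsection was the low group and the limiting midsection approached the tips. Solyc12g057060.2.1 had 874, 942, 974 and 1107 CPM in limiting and 569, 447, 312 and 284 CPM in sufficient midsections, with a tip ratio of 1.47. Solyc06g005160.3.1 had 735, 1050.2, 910.2 and 778 CPM in limiting and 567, 422, 408 and 309 CPM in sufficient midsections, a ratio of 2.03 that stands just inside the limit. Solyc04g014510.3.1 had 1687, 2419, 2073 and 2459.9 CPM in limiting and 1642, 1056, 416 and 697 CPM in sufficient midsections, so its lowest limiting and highest sufficient libraries nearly met.

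Solyc10g007290.3.1 was both abundant and tip-gained. It had 632, 891, 1187 and 1105 CPM in limiting midsections and 330.0, 219, 206 and 152 CPM in sufficient ones. Its tips held 966, 1401, 1069.9 and 708 CPM under limiting and 1064, 1517, 1232 and 1509 CPM under sufficient phosphate. Only the sufficient midsection stood apart, with a midsection ratio of 4.19 and a tip ratio of 0.779, and the limiting midsections overlapped the tips. Its neighbours by ID, Solyc10g007280.3.1 and Solyc10g007310.1.1, were members with ratios of 4.07 and 4.13 at lower levels: 9.1 to 13.6 CPM and 4.85 to 6.83 CPM in limiting midsections. Solyc10g007280.3.1 held 14.6 to 34.1 CPM in tips, while Solyc10g007310.1.1 held at most 2.13 CPM there.

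The tip-gained members with the largest tip excess stayed far below the tip at limiting phosphate. Solyc03g115380.2.1 had 6.62, 8.67, 4.09 and 3.28 CPM in limiting and 1.08, 0.11, 0 and 0.118 CPM in sufficient midsections, against 283, 438, 316 and 230.4 CPM in limiting and 196, 621, 657 and 619 CPM in sufficient tips. Solyc09g047910.3.1 had 9.06, 8.98, 10 and 7.8 CPM in limiting and 1.42, 1.97, 0.922 and 2.35 CPM in sufficient midsections, with 68.5 to 85.1 CPM in limiting and 53.6 to 145 CPM in sufficient tips. Solyc07g043490.1.1 had 7.06, 7.64, 4.62 and 5.02 CPM in limiting and 2.01, 0.55, 0 and 0.471 CPM in sufficient midsections, with 51 to 116 CPM over the 8 tips. In each of these genes the midsection libraries of the 2 phosphate levels did not overlap and every tip lay above every midsection.

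The rest of the 8 showed the same order of groups. Solyc02g080670.3.1 had 12.2, 7.24, 5.05 and 6.5 CPM in limiting and 3.9, 1.87, 0.922 and 1.18 CPM in sufficient midsections, and its limiting tips, at 65.3 to 105 CPM, lay below its sufficient tips, at 113 to 206 CPM. Solyc02g070280.3.1 had 4.06, 4.15, 6.76 and 9.47 CPM in limiting and 1.77, 0.22, 0 and 0.588 CPM in sufficient midsections, with overlapping tips of 53.5 to 67.5 and 38.8 to 114 CPM at limiting and sufficient phosphate. Solyc02g093960.3.1 had 13.9, 6.57, 7.19 and 7.25 CPM in limiting and 3.43, 2.64, 2.77 and 2 CPM in sufficient midsections. For Solyc04g009590.3.1 and Solyc10g083290.3.1 the midsection gap was narrow: the lowest limiting libraries had 4.88 and 17.2 CPM and the highest sufficient ones 4.73 and 14.1 CPM.

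In the order of IDs among the 14026 genes, 68 members (13.5%) fell in 32 runs of adjacent members, and 4 runs held 3 members each; whether this exceeds what the number of members gives was not tested. By the chromosome field of the ID, members were 3.59% of the 14026 genes over all fields. The highest share was 5.27% in field 10 (48 of 911) and the lowest 2.59% in field 5 (25 of 967). The other fields lay between 2.91% and 4.11%, and differences between fields were not tested. Near-identical genes can share reads, and fractional values mark counts that were not whole: 159 members (31.6%) had a fractional count in at least 1 M82 library, beside 28.6% of the 14026 genes. Solyc01g109150.3.1 and Solyc01g109150.4.1 carry the same locus number and were fractional in every M82 library, so their separate values are uncertain.

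In an edgeR quasi-likelihood fit of all 4 M82 groups, 501 members passed the low-count filter, and counts from it describe how far the chosen differences stood above the spread between replicates. In midsections, 103 of the 501 (20.6%) were called higher at limiting phosphate, beside 0.958% of all 18275 genes tested. Lower calls were 0, beside 0.471% of all genes, and 0 also at an unadjusted p below 0.05. Of the 103, 57 were tip-gained. The 103 became 186 by DESeq2. With 1 library left out, they became 64 and 55 without sufficient midsection replicates 3 and 4. Without limiting midsection replicates 2, 3 and 4 they became 68, 56 and 65. The rule chose on this contrast, so nothing is read from the excess. The remaining members met the conditions of the rule without passing the adjusted threshold of 0.05. In tips, 0 members were called higher, beside 1.22% of all genes, and 1 lower (0.2%, beside 0.202%). At an unadjusted p below 0.05, 13 were higher (2.59%, beside 6.53% of all genes). DESeq2 called 5 and limma-voom 10 in either direction. Shares over all genes are not given for the alternative fits, so nothing is read from their counts. The rule removed genes with a tip ratio of 2 or more, among them 53 called higher in tips of the 174 raised at both positions, so the absence of higher calls was largely fixed by the choice. The member called lower by edgeR, Solyc04g058100.3.1, named after its values were seen, had 47.1, 29.5, 35.3 and 24.5 CPM in limiting and 158, 116, 85.6 and 78.9 CPM in sufficient tips, which did not overlap. Its midsections ran the other way, with 67.7, 79.6, 112 and 81.9 CPM at limiting and 47.4, 52.1, 33.7 and 27.9 CPM at sufficient phosphate.

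For the difference between positions, the rule fixed the direction: the fitted interaction was negative in 500 of the 501 members tested. The tip response to limiting phosphate was called below the midsection response in 37 members (7.39%, beside 0.323% of all genes), 24 of them tip-gained. It was called above the midsection response in 0, beside 0.646% of all genes, and in 0 also at an unadjusted p below 0.05. Of the members, 32 were called both in midsections and in this interaction, 71 in midsections alone and 5 in the interaction alone. The 37 became 108 by DESeq2, 58 without sufficient midsection replicate 1, 21 and 24 without limiting midsection replicates 3 and 4, 24 without sufficient midsection replicate 4 and 22 without limiting tip replicate 4. Nothing is read from these counts.

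Position calls followed the choice of members as well, since the midsection ratio was chosen above the tip ratio and the tip-gained split used the sufficient tip and midsection. At sufficient phosphate 234 members were called higher in tips than in midsections (46.7%, beside 13.7% of all genes) and 4 lower (0.798%, beside 13.7%). At limiting phosphate 50 were called higher (9.98%, beside 6.17%) and 24 lower (4.79%, beside 4.27%). Of the 161 tip-gained members, 151 were called higher in tips at sufficient phosphate, 50 of these also at limiting phosphate and 101 not. The smaller number at limiting phosphate was fixed by the rule and is no finding. The median log2 tip over midsection difference at sufficient phosphate was 1.64 over the tested members and -0.43 over the 174 genes raised at both positions. Over all genes tested it was -0.02. Members and the 174 were chosen on opposite sides of a tip ratio of 2, whose denominator is the sufficient tip mean. Part of the difference between them is therefore built in.

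Pennellii libraries took no part in the selection and give the only independent measure here. The Pennellii table is described by its name as mapped to M82, so levels are not compared between species. Libraries below 100000 counts were left out, among them a limiting tip and a sufficient midsection column with identical values. There remained 3 limiting and 3 sufficient midsection libraries, and 3 limiting and 2 sufficient tip libraries, of 137511 to 13124725 counts, and 436 of the 503 members passed the filter. In the shallowest, limiting midsection replicate 2, 305 members had no count.

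A rise of the members was not detectable in Pennellii midsections at this depth. Of the 436 members, edgeR called 0 higher at limiting phosphate, beside 0.0194% of 15485 genes tested, and 1 lower (0.229%, beside 0.0129%). DESeq2 called 0 and limma-voom 5 in either direction. Their shares over all genes are not given here, so nothing is read from these 2 counts. At an unadjusted p below 0.05, 12 members were higher (2.75%, beside 2.31% of all genes) and 14 lower (3.21%, beside 1.21%). The median log2 fold change of the members was -0.30, beside -0.15 over all genes, and 41.1% of members were positive, beside 45.1%. It was -0.27 for tip-gained and -0.31 for other members. Every limiting library lay above every sufficient one in 10 members (2.29%, beside 2.03% of all genes) and below in 44 (10.1%, beside 8.01%), shares near those of all genes.

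Solyc10g007290.3.1 was the member called lower. In Pennellii midsections it had 388, 320.0 and 363 CPM at limiting and 2825, 1808 and 1779 CPM at sufficient phosphate, and in tips 443, 541 and 699 CPM at limiting and 1955 and 1217 CPM at sufficient phosphate. The limiting libraries lay below the sufficient ones at both positions, where in M82 midsections they lay above. The midsection difference was -2.48 ± 0.49 on the log2 scale (SE, n = 3 against 3), with an adjusted p of 0.00137 by edgeR's quasi-likelihood test with Benjamini-Hochberg adjustment. Over the alternatives the adjusted p ran from 3.10e-05 to 0.518; the call was lost with DESeq2 (0.281), without sufficient midsection replicate 2 (0.220) and with all libraries except the identical columns (0.518), and the sign held in all 14. The difference between the species was not tested.

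Other members with large Pennellii differences did not pass the threshold. Solyc06g062550.4.1, the member with the largest M82 ratio, had 1.51, 364 and 55.8 CPM in limiting and 1.08, 0.99 and 0 CPM in sufficient Pennellii midsections, the 364 CPM coming from the library of 137511 counts. In tips it had 0.602, 39.4 and 88.1 CPM at limiting and 0 and 0 CPM at sufficient phosphate. Its limiting libraries lay above its sufficient ones at both positions, by as little as 1.51 against 1.08 CPM in midsections, with a midsection log2 difference of 8.02 and an edgeR adjusted p of 0.145 (0.0234 to 1 over the alternatives, called in 2 of 13). Solyc04g014510.3.1 had 196, 182 and 86.7 CPM in limiting and 1035, 856 and 847 CPM in sufficient midsections without overlap, a log2 difference of -2.45 with an edgeR adjusted p of 0.106 (0.00234 to 1 over the alternatives, called in 1 of 14). Its direction in M82 midsections was the opposite. Solyc09g097960.3.1 had 209.9, 30.6 and 149 CPM in limiting and 874, 473 and 420.1 CPM in sufficient midsections, also without overlap, with an edgeR adjusted p of 0.835 (0.355 to 1 over the alternatives).

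Pennellii tips showed no edgeR call among the members at limiting phosphate. Higher calls were 0, beside 0.0646% of all genes, and lower calls 0, beside 0.0129%, while DESeq2 called 8 members. The share that DESeq2 called over all genes is not given here, so nothing is read from the 8. At an unadjusted p below 0.05, 31 were higher (7.11%, beside 7.01% of all genes) and 9 lower (2.06%, beside 3.25%), and the median log2 fold change was 0.15, beside 0.35 over all genes. By position, tip-gained members leaned towards the tip in Pennellii as well, as did M82 tip genes in general. At sufficient phosphate the median log2 tip over midsection difference was 0.64 for the 145 tip-gained members tested, -0.35 for the 291 others and -0.23 over all genes, and 64.1%, 44.0% and 44.2% of them were positive. Over all M82 tip genes defined above it was 0.91 for the 1136 tested, of which 66.8% were positive. Every tip library lay above every midsection library in 30 tip-gained members (20.7%) and 25 others (8.59%), beside 9.54% of all genes, and below it in 11 tip-gained members (7.59%) and 45 others (15.5%), beside 15.7%. No member was called in this contrast by edgeR in either direction (0% of all genes higher and 0.0129% lower), while DESeq2 called 2 and limma-voom 1. For these alternative fits the shares over all genes are not given here either. At an unadjusted p below 0.05, 3 were higher (0.688%, beside 1.42% of all genes) and 24 lower (5.5%, beside 5.13%). The sufficient tip group holds 2 libraries. With the replicate number as a block the tip-gained median at sufficient phosphate was -0.25, and without sufficient tip replicate 3 it was 0.05. At limiting phosphate the tip-gained median was 0.90, beside 1.15 over M82 tip genes and 0.20 over all genes. Of tip-gained members 72.4% were positive there, beside 55% of all genes. The median tip minus midsection response to phosphate was 0.48 for tip-gained and 0.64 for all members, beside 0.50 over all genes. Whether the members' tip excess changes with phosphate in Pennellii was not tested for the set.

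**Figure D5:**
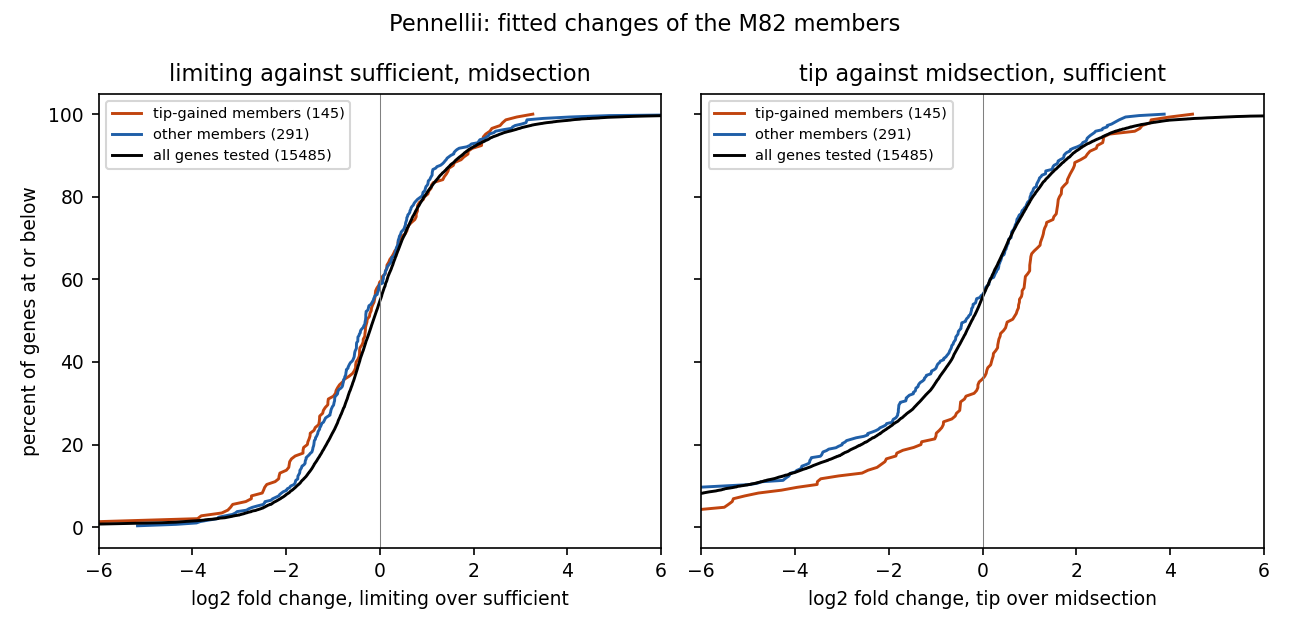
Percent of genes (vertical) at or below each log2 fold change (horizontal, shown from -6 to 6) in Pennellii, for limiting over sufficient midsections (left) and sufficient tips over sufficient midsections (right). In midsections the curves of the tip-gained members (orange), other members (blue) and all 15485 genes (black) lie together around medians of -0.27, -0.31 and -0.15; in the right panel the tip-gained curve lies right of the others, with a median of 0.64.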

How the data were processed

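Per the labels' protocols, total RNA was made into BrAD-seq libraries, which read the 3′ ends of transcripts by strand, so values were not scaled by length. The authors deposited estimated counts per gene model, partly fractional (7.57% of M82 values), in a table for each species. The submitters' processing notes list Bowtie 1.2.2, limma, edgeR and FastQC. The counting program, genome build and annotation were not given in the sources used here. Nothing says that replicates came from separate sowings, so p-values measure the spread between these pooled samples. All columns matched a sample title, and 0 were left unused. Of 34843 IDs, 0 matched the RefSeq table, so gene lists, cell type markers and sequences could not be given.

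Shares of counts and CPM use column totals. For fits, estimated counts were rounded to whole numbers and scaled by TMM, and genes were kept by filterByExpr (minimum count 10, minimum total 15). Tests used edgeR 4.0.16 in R 4.3.3 (robust quasi-likelihood, Benjamini-Hochberg adjustment, threshold 0.05), with the 4 groups of a species in 1 fit; standard errors are fold changes (log2) over the square root of F. Pennellii libraries below 100000 counts were left out, a departure from the design of 4 libraries per group made because of depth and of 2 identical columns. Intervals and floors of 3 counts cover counting error only, since they use counts summed over replicates and leave out the spread between replicates. Reads carry no molecular identifiers, so copies of 1 molecule cannot be told apart and the intervals may be too narrow.

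The members, the groups of genes and the tests were chosen with earlier results of these data known. Named genes were the 10 members with the largest midsection ratio, the 8 with the highest limiting midsection mean, the 8 tip-gained members with the largest tip excess, members called in Pennellii and 3 genes on each side of every limit; others are named as neighbours or marked where named after their values were seen. Alternatives were TMM-scaled CPM, other limits and pseudocounts in the rule, RLE scaling, DESeq2 1.42.0, limma-voom (limma 3.58.1), other filters, a replicate block, fits of only the groups compared, each library left out in turn and, added later, M82 libraries of at least 2000000 counts.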

Additional observations from a re-analysis of the deposited data

Results flagged for a closer look

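Groups of 4 libraries were examined for the named members and for the members' summed and median levels. Of 113 groups, 13 (11.5%) had a library far from the others. The cut-off flags about 1 in 20 by chance only where values are independent and normally distributed. These groups shared libraries and the sums overlapped, so no excess is read from the share. In tips the outlying libraries were limiting replicate 2 of Solyc06g062550.4.1 (0.0023 CPM, the others 1.49 to 1.77), limiting replicate 3 of Solyc09g008910.2.1 (195 CPM, the others 65.4 to 81.4) and of Solyc11g011330.2.1 (1657 CPM, the others 1226 to 1269). At sufficient phosphate they were tip replicate 4 of Solyc02g082920.3.1 (51.9 CPM, the others 3.86 to 8.83) and of Solyc02g080670.3.1 (206 CPM, the others 113 to 127), tip replicate 3 of Solyc05g052490.3.1 (16.5 CPM, the others 0.201 to 2.69), and tip replicate 1 of Solyc07g009080.3.1 (10.1 CPM, the others 0 to 0.117) and of Solyc03g115380.2.1 (196 CPM, the others 619 to 657). In midsections they were limiting replicate 4 of Solyc06g073580.3.1 (52.0 CPM, the others 1.21 to 5.91), limiting replicate 1 of Solyc02g093960.3.1 (13.9 CPM, the others 6.57 to 7.25) and sufficient replicate 1 of Solyc07g009080.3.1 (6.74 CPM, the others 0 to 0.66). The members summed to 30373 CPM in sufficient tip replicate 1, below the 32463 to 32866 CPM of the others, and their median in limiting midsection replicate 1 was 18.8 CPM, below 20.2 to 20.3 CPM.

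The phosphate response differed between positions in 14 of the 25 named M82 members tested by edgeR's interaction term; the genes were chosen for that difference on the same libraries, so these are descriptions. The tip minus midsection difference of log2 fold changes was -7.34 for Solyc07g009100.3.1, -5.80 for Solyc06g062550.4.1, -5.55 for Solyc03g096420.1.1, -5.0 for Solyc02g082920.3.1 and -4.50 for Solyc03g115380.2.1. It lay closer to 0 for Solyc09g008910.2.1 (-2.99), Solyc09g047910.3.1 (-2.87), Solyc07g043490.1.1 (-2.70), Solyc02g080670.3.1 (-2.66), Solyc10g007290.3.1 (-2.44) and Solyc02g093960.3.1 (-2.43). The abundant Solyc07g052510.4.1, Solyc11g011330.2.1 and Solyc09g097960.3.1 had -1.39, -1.32 and -1.31.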

How the results depend on the processing

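The size of the gene list depended on single libraries: 480 (without sufficient tip replicate 2) to 832 genes (without sufficient midsection replicate 2), of which 149 (without sufficient tip replicate 3) to 311 (without sufficient midsection replicate 2) were tip-gained; without sufficient midsection replicate 1 it gave 773. A midsection fold of 3 gave 225 members, a level of 10 CPM left 92 tip-gained members, and TMM-scaled libraries gave 417 members, 407 of them shared.

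In M82 midsections DESeq2 called 186 members higher (edgeR 103; leaving out 1 library 55 to 101, lowest without sufficient replicate 4 and 56 without limiting replicate 3). In tips 1 call became 5 (DESeq2), 10 (limma-voom), 2 (no filter), 2 (replicate block), 2 (only the groups compared) and 5 (libraries of at least 2000000 counts), and 1 to 4 with a library left out. The interaction gave 108 calls by DESeq2 (edgeR 37; 21 to 58 with a library left out, the lowest without limiting midsection replicate 3, the highest without sufficient midsection replicate 1). Tip against midsection gave 213 to 230 calls at sufficient phosphate, and at limiting phosphate 133 (limma-voom), 122 (only the groups compared) and 61 to 69 (a library left out), beside 74. Shares over all genes are not given for these alternatives, so the counts do not set members apart from other genes.

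Pennellii calls, 1 in midsections, were 3 (RLE scaling), 0 (DESeq2), 5 (limma-voom), 2 (only the groups compared), 0 (all libraries except identical columns) and 0 to 3 (a library left out). In Pennellii tips they were 8 (DESeq2), 3 (all libraries) and 0 with any library left out; for tip against midsection 2 (DESeq2), 1 (limma-voom), 3 (only the groups compared) and 0. Here too the shares over all genes are not given, so nothing is read from the counts. The members' median midsection fold change stayed negative, -0.67 to -0.06. The tip-gained tip over midsection median ran from 0.05 to 0.84 and was -0.25 with the replicate block; the cause of each shift was not tested.

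Same-numbered M82 samples showed little shared deviation (correlations -0.032 to 0.098). In Pennellii the correlations ran from -0.005 to 0.218, the highest between limiting tip and limiting midsection replicates 1. Whether the numbers pair samples is not known, since low correlations cannot settle it. A replicate block gave 98, 2 and 36 M82 calls for midsection, tip and interaction. For tip against midsection it gave 222 and 78 M82 calls at sufficient and limiting phosphate. Pennellii calls with the block were 1, 0 and 0. Depth limits the Pennellii values and the M82 sufficient midsection replicate 3.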
